A study of Rattus norvegicus with 48 samples.

Results

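Liver miRNAs of rats fed ethanol were compared with those of carbohydrate-fed rats 24 h after partial hepatectomy, over all treatments given. The members were every animal labelled EtOH.24hr, 9 animals, and every animal labelled CHO.24hr, another 9, so 18 of the 48 samples in the series were used. All were male Sprague-Dawley rats that had received a liquid diet for 6 to 8 weeks. It had 36% of calories from ethanol (EtOH) or carbohydrate in its place (CHO). Ages of 8 to 14 weeks refer to the feeding, be it the start or the whole period. Age at surgery is not given in the sources used here. All had 70% of the liver removed. Within each diet 3 animals were untreated, 3 received saline and 3 received AM21, a locked nucleic acid oligonucleotide antisense to miR-21. AM21 was given intraperitoneally, 7.5 mg per kg each time, with surgery following the first dose by 72 h and a repeat dose once surgery was done. The 18 samples at 0 h, with the same diet and treatment labels, were used for contrast only; which of these doses preceded collection at 0 h is not given in the sources used here. Each animal carries a set number from 1 to 3 in its label, and each set holds 1 animal of each of the 6 groups at 24 h. The diets were pair-fed, but what a set stands for is not given in the sources used here, nor is it given whether livers at 0 h and 24 h came from the same animals.

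The NanoString nCounter assay counts barcoded probes hybridised to each miRNA, and 143 miRNAs were in the deposited table. Total counts at 24 h were 92286 to 196468 in CHO animals (median 163589) and 135992 to 201170 in EtOH animals (median 166638). The lowest total belonged to CHO untreated animal 2. Mean totals were 159500 ± 28800 in CHO and 169000 ± 21400 in EtOH (SD, n = 9 each), a difference smaller than the spread between animals (two-sided exact permutation test, p = 0.464). The median miRNA had a median of 89.5 counts per animal, and 37 of the 143 had a median under 50, so counting error was larger for these.

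miR-122, the most abundant miRNA of hepatocytes and a regulator of lipid and cholesterol metabolism, took 56.9% to 68.8% of the counts in CHO animals and 55.8% to 64.9% in EtOH animals, as a liver sample should show. The mean share was 61.6% ± 4.35 in CHO and 59.2% ± 3.01 in EtOH (SD, n = 9 each; two-sided exact permutation test, p = 0.189). The shares of the diets overlapped over most of their range. The highest CHO shares, 68.0% and 68.8%, were those of CHO AM21 animals 1 and 3, and the next CHO share was 61.9%.

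miR-21, the target of AM21 and a growth-promoting miRNA, was looked at first as a check of the labels. In CHO animals its level in log2 CPM (log2 of the count relative to the scaled library total, so that a difference is a log2 ratio) was 15.58, 15.07 and 15.28 in untreated animals, 15.14, 14.97 and 14.72 with saline, and 7.49, 7.32 and 6.59 with AM21. In EtOH animals it was 15.76, 15.27 and 15.25 in untreated animals, 15.07, 15.12 and 15.48 with saline, and 6.80, 7.15 and 7.29 with AM21. All 6 AM21 animals lay far below the other animals, in both diets, as their labels say. Between diets miR-21 differed by 0.11 ± 0.13 (EtOH minus CHO, log2 difference ± SE; adjusted p = 0.656 by limma). This value averages in the AM21 animals, whose miR-21 was inhibited. By treatment the difference was 0.115 in untreated, 0.275 in saline and -0.05 in AM21 animals (SE 0.23 each).

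After partial hepatectomy the remaining hepatocytes leave rest and divide, and chronic ethanol feeding is known to slow this response. miRNAs lower the output of target messengers through pairing of a short seed near their 5′ end, so miRNAs with the same seed share many targets. In liver, let-7 and miR-30 members are abundant in differentiated cells, miR-192 and miR-194 are epithelial and hepatocyte miRNAs, and miR-144 and miR-451 belong to red blood cells.

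The diet comparison called 11 of 143 miRNAs (limma, adjusted p under 0.05, with treatment as a covariate and set as a block), which is 7.69% of those tested. Of these, 9 were higher in EtOH (6.29%) and 2 were lower (1.40%). Called or not, 65 of the 143 miRNAs were higher on average in EtOH and 78 were lower. At an unadjusted p under 0.05 there were 33. The differences were small: the median absolute difference over all miRNAs was 0.14 on the log2 scale, the largest was 0.72, and none of the 143 reached 1. The smallest difference among the called miRNAs was 0.27. For none of the 143 miRNAs did the 9 EtOH animals lie wholly apart from the 9 CHO animals. Among the 11 called, 8 or 9 of the 9 EtOH animals lay past the CHO median in the direction of the difference. The 11 were picked on these same values, so this is no separate support, and it was not particular to them. Of miRNAs not called, miR-223 also had all 9 EtOH animals above the CHO median, at a difference of 0.06. miR-29a had all 9 below it, at -0.16.

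The count depended on single animals and on the block: it was 6 with no replicate block, and 4 of the same miRNAs were called with RLE size factors in place of the deposited scaling, 2 higher and 2 lower. It was 4 without CHO untreated animal 1 or 2, CHO AM21 animal 3, EtOH untreated animal 2, or EtOH AM21 animal 1 or 2. It was 5 without CHO saline animal 2, 6 without CHO untreated animal 3, CHO AM21 animal 2, EtOH untreated animal 1 or 3, or EtOH AM21 animal 3, and 7 without CHO saline animal 1 or EtOH saline animal 3. miR-152, miR-30a and let-7b were called in each of the 18 fits that left out 1 animal, and miR-455 in 16 of them. miR-194 was called in 11 of the 18, miR-103 in 6, miR-30e in 5, miR-140 in 3, miR-451 and miR-101b in 2 each, and miR-151 in 1.

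**Figure D1:**
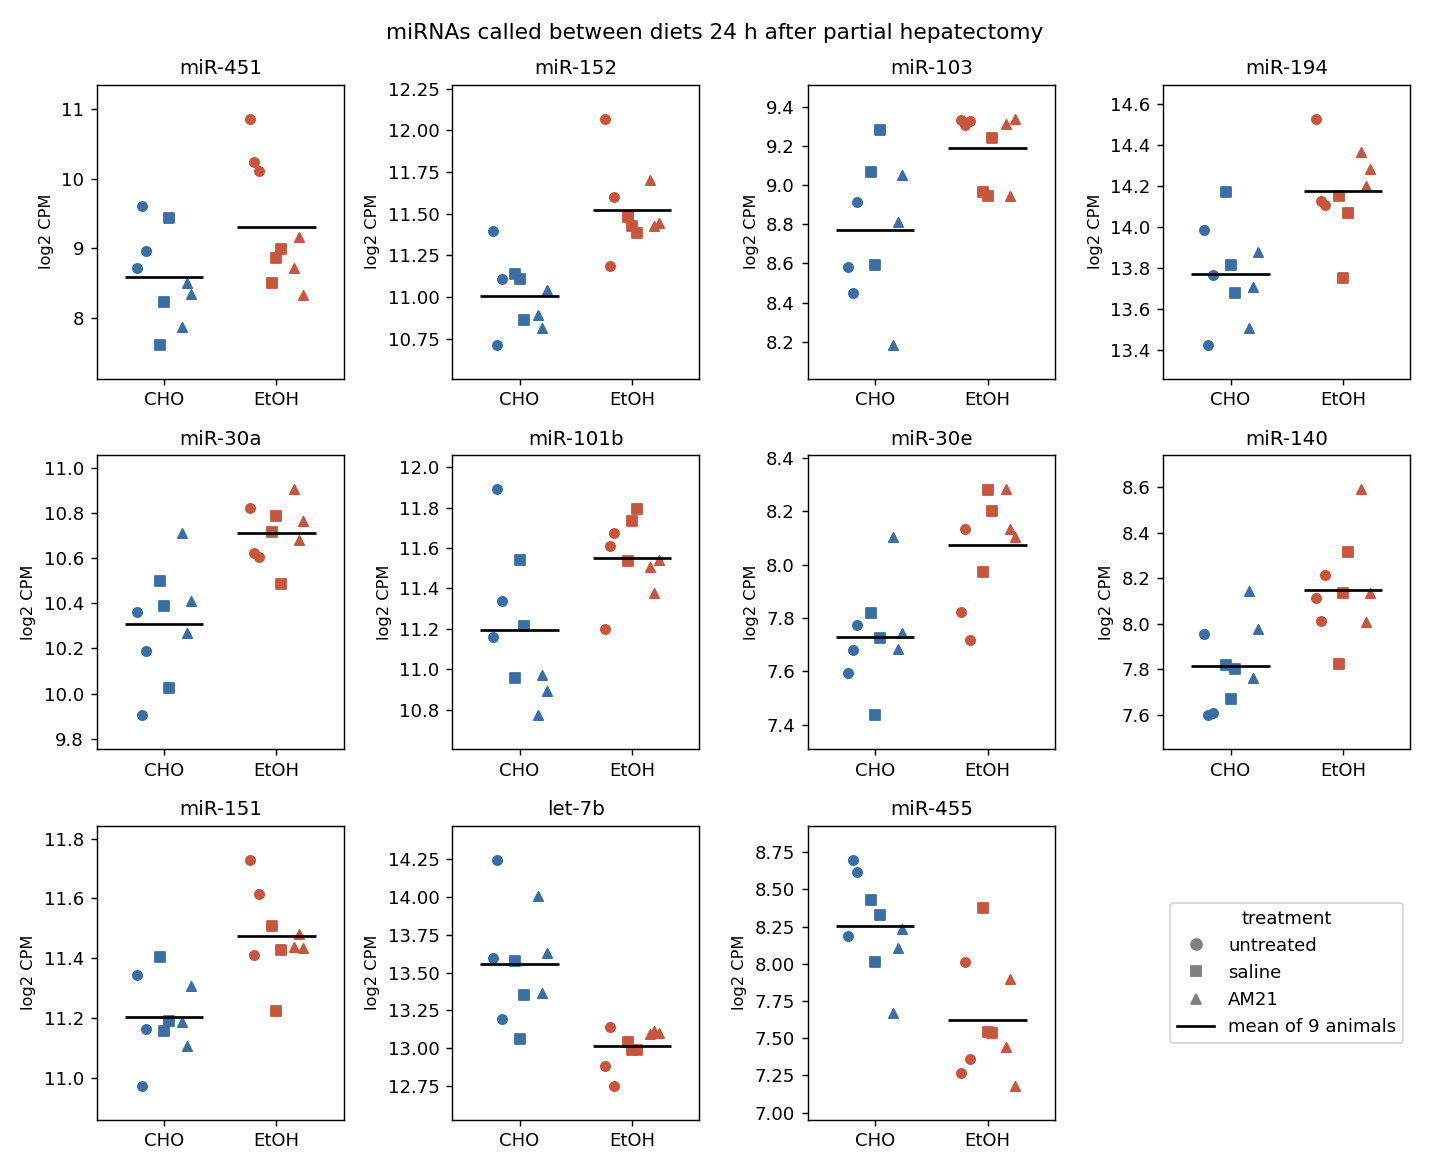
Level in log2 CPM (vertical axes) of the 11 called miRNAs in each of the 18 animals at 24 h, by diet; symbols give the treatment and bars the mean of 9 animals. EtOH and CHO animals overlap in every panel, and 9 miRNAs have the higher mean in EtOH and 2 in CHO.

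miR-152, whose family represses the DNA methyltransferase Dnmt1, had the smallest p. In CHO animals it was 11.40, 10.71 and 11.11 log2 CPM untreated, 11.14, 11.11 and 10.86 with saline, and 10.89, 10.81 and 11.04 with AM21. In EtOH animals it was 12.07, 11.19 and 11.60 untreated, 11.48, 11.42 and 11.38 with saline, and 11.70, 11.43 and 11.45 with AM21. Of the 9 EtOH animals, 7 lay above the highest CHO animal, and the overlap came from CHO untreated animal 1, the highest of its diet. The means were 11.01 ± 0.21 in CHO and 11.53 ± 0.25 in EtOH (SD, n = 9 each), a difference of 0.52 ± 0.10 (SE; adjusted p = 0.00727 by limma). miR-148b-3p has the same seed but differed by 0.09 and was not called. The seed (bases 2 to 8, in capitals) is shown for this pair because only 1 of them was called; sequences here and below are from RefSeq, build GRCr8, 5′ to 3′.
miR-152-3p: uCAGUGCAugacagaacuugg
miR-148b-3p: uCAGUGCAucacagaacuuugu
Counted from 1 at the 5′ end of miR-152-3p, the pair differs by G10C and G20U over their shared length, both outside the seed.

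The miR-30 family, which represses Snai1 and other genes of the epithelial to mesenchymal shift, had 5 measured members of 5 listed. All 5 were higher in EtOH on average, beside 65 of all 143, and 2 were called, beside 7.69% of all 143. The median difference of the family was 0.34, beside -0.02 over all miRNAs. All 5 were also positive with both other scalings tried. These moved all miRNAs alike, the median over all to -0.03 and -0.06, too little to turn any of the 5, so this was no test of their direction. miR-30a was 9.90 to 10.71 log2 CPM in CHO animals (median 10.36) and 10.49 to 10.90 in EtOH animals (median 10.71). All 9 EtOH animals lay above the CHO median and 5 lay above every CHO animal; the highest CHO value was an AM21 animal. The means were 10.31 in CHO and 10.71 in EtOH, a difference of 0.40 ± 0.09 (SE; adjusted p = 0.0117 by limma). miR-30e was 7.44 to 8.10 in CHO animals (median 7.73) and 7.72 to 8.28 in EtOH animals (median 8.13), a difference of 0.34 ± 0.10 (adjusted p = 0.0408 by limma). This call was lost with both other scalings (adjusted p = 0.0515 and 0.067 by limma, range over all alternatives 0.0309 to 0.288). It was a dim miRNA, with a median of 36 counts per animal and 18 in the lowest.

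The other miR-30 members did not pass the test: miR-30b-5p differed by 0.39 ± 0.15, miR-30c by 0.28 ± 0.11 and miR-30d by 0.18 ± 0.10 (limma, adjusted p = 0.105, 0.105 and 0.272). For miR-30b-5p, CHO AM21 animal 1, at 10.39, lay below all other CHO animals, which ran from 11.32 to 11.72, and 7 of the 9 EtOH animals exceeded the highest of them. The 3 members printed below share 1 seed, which is why they are shown together.
miR-30a-5p: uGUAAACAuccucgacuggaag
miR-30e-5p: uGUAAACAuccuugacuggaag
miR-30c-5p: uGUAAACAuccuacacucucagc
miR-30a-5p and miR-30e-5p differ by a single base, C13U from the first to the second. Their probes may share signal, which was not tested, so their values may not be fully separate measurements.

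miR-194 and its neighbour miR-192, both hepatocyte miRNAs under the control of hepatocyte nuclear factors, were higher on average in EtOH. miR-194 was 13.43 to 14.17 log2 CPM in CHO animals (median 13.77) and 13.75 to 14.53 in EtOH animals (median 14.16). EtOH saline animal 2 was the lowest of its diet and the only EtOH animal below the CHO median. The means were 13.77 in CHO and 14.18 in EtOH, a difference of 0.41 ± 0.11 (SE; adjusted p = 0.0305 by limma), a call lost with both other scalings (adjusted p = 0.0515 and 0.0513 by limma, range over all alternatives 0.0124 to 0.161). miR-192 differed by 0.26 ± 0.09 and did not pass (adjusted p = 0.0891 by limma). The mature miRNAs lie 172 bases apart on the plus strand at chr1:212994038-212994252, and their seeds differ. miR-194-5p has another copy on chromosome 13, so its level cannot be tied to the copy beside miR-192.
miR-194-5p: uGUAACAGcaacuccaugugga
miR-192-5p: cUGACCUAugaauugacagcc
The hepatocyte list (miR-122, miR-192 and miR-194) thus had 1 called member of 3, with a median difference of 0.26, beside 7.69% called and a median of -0.02 over all 143 miRNAs. miR-122 itself differed by -0.12 ± 0.10 (adjusted p = 0.525 by limma). By treatment its difference was 0.04 in untreated, -0.02 in saline and -0.38 in AM21 animals (SE 0.17 each), without a call of diet by treatment. In whole liver, fewer cells of a type and less RNA per cell cannot be told apart.

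miR-103 and miR-107, which lie within pantothenate kinase genes and dampen insulin signalling, were both higher on average in EtOH. miR-103 was 8.18 to 9.29 log2 CPM in CHO animals (median 8.81) and 8.95 to 9.34 in EtOH animals (median 9.31). EtOH animals were closely spaced and CHO animals spread widely below and into their range, with 5 EtOH animals above every CHO animal. The means were 8.77 ± 0.35 in CHO and 9.19 ± 0.18 in EtOH (SD, n = 9 each), a difference of 0.42 ± 0.12 (SE; adjusted p = 0.0408 by limma). The call was lost with both other scalings, with no replicate block and with a random replicate block (adjusted p = 0.071 and 0.0562 by limma for the 2 blocks, range over all alternatives 0.0272 to 0.161). miR-107 differed by 0.30 ± 0.11 (adjusted p = 0.101 by limma). The pair is printed because 1 base, G22C from miR-103-3p to miR-107-3p, is all that separates them, and their probes may share signal.
miR-103-3p: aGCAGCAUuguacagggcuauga
miR-107-3p: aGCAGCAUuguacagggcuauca

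miR-101b, whose family represses the histone methyltransferase Ezh2, was 10.77 to 11.89 log2 CPM in CHO animals (median 11.16) and 11.20 to 11.79 in EtOH animals (median 11.54). No EtOH animal exceeded the highest CHO animal, which was untreated, but all 9 lay above the CHO median. The means were 11.19 in CHO and 11.55 in EtOH, a difference of 0.36 ± 0.11 (SE; adjusted p = 0.0439 by limma). This call was lost in 16 of the 18 fits that left out 1 animal, with both other scalings and with no replicate block (adjusted p = 0.0754 by limma, range over all alternatives 0.0154 to 0.371). miR-101a, 1 base apart (A16G from miR-101a-3p to miR-101b-3p), differed by 0.04, so this near-identical pair is shown. miR-101a was dimmer, at a mean of 7.95 log2 CPM in CHO animals. The probes of the pair may share signal, which was not tested.
miR-101a-3p: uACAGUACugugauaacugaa
miR-101b-3p: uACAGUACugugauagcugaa

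miR-140, known best from cartilage, and miR-151, which lies in the focal adhesion kinase gene, were the other 2 called as higher outside the red blood cell list. miR-140 was 7.60 to 8.14 log2 CPM in CHO animals (median 7.80) and 7.82 to 8.59 in EtOH animals (median 8.14), with a median of 38 counts per animal. It differed by 0.33 ± 0.10 (SE; adjusted p = 0.0408 by limma), a call lost with both other scalings, with voom weights and with no replicate block (adjusted p = 0.0586 and 0.0554 by limma for the last 2, range over all alternatives 0.00923 to 0.252). miR-151 was 10.97 to 11.40 in CHO animals (median 11.19) and 11.22 to 11.73 in EtOH animals (median 11.44). All but 1 of its EtOH animals exceeded every CHO animal, and it differed by 0.27 ± 0.08 (SE; adjusted p = 0.0439 by limma). The call of miR-151 was lost in 17 of the 18 fits that left out 1 animal, with both other scalings and with no replicate block (adjusted p = 0.0716 by limma, range over all alternatives 0.0380 to 0.155).
miR-140-5p: cAGUGGUUuuacccuaugguag

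let-7b and miR-455 were the 2 miRNAs called as lower in EtOH. let-7 miRNAs repress growth genes such as Ras, Myc and Hmga2. let-7b was 13.60, 14.25 and 13.19 log2 CPM in untreated CHO animals, 13.57, 13.06 and 13.35 with saline, and 14.01, 13.36 and 13.63 with AM21. In EtOH animals it was 12.88, 13.14 and 12.75 untreated, 13.04, 12.99 and 12.99 with saline, and 13.10, 13.12 and 13.10 with AM21. EtOH animals lay within a narrow range at the bottom, all 9 below the CHO median and 5 below every CHO animal, while CHO animals spread upward to CHO untreated animal 2. The means were 13.56 ± 0.38 in CHO and 13.01 ± 0.13 in EtOH (SD, n = 9 each), a difference of -0.55 ± 0.13 (SE; adjusted p = 0.0201 by limma).

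Of the 8 let-7 members measured, let-7b was the 1 called, beside 7.69% of all 143; 7 were lower and 1 higher on average, beside 78 and 65 of all 143, with a median difference of -0.07 beside -0.02 over all miRNAs. let-7c differed by -0.29 ± 0.10 (adjusted p = 0.0894 by limma), let-7a by -0.01, let-7f by -0.02 and let-7d by 0.14; let-7a and let-7f lay so near 0 that their sign changed when single animals were left out. let-7b-5p and let-7c-5p lie 386 bases apart on the plus strand at chr7:118683636-118684065, and let-7c-5p has another copy elsewhere. They differ by 1 base, G17A from let-7b-5p to let-7c-5p, so signal may be shared between their probes.
let-7b-5p: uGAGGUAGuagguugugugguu
let-7c-5p: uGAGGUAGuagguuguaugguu
let-7a-5p: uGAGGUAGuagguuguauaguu

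miR-455, known from cartilage and brown fat, was 7.67 to 8.70 log2 CPM in CHO animals (median 8.24) and 7.18 to 8.38 in EtOH animals (median 7.53). EtOH saline animal 1 was as high as most CHO animals, whereas 6 EtOH animals lay below every CHO animal. The means were 8.25 ± 0.32 in CHO and 7.62 ± 0.39 in EtOH (SD, n = 9 each), a difference of -0.63 ± 0.15 (SE; adjusted p = 0.0233 by limma). It was near the lower end of the table, with 24 to 65 counts per animal. Its call was lost without CHO untreated animal 2 or CHO AM21 animal 3 (adjusted p = 0.052 and 0.0528 by limma, range over all alternatives 0.00312 to 0.0996). No sequence is given, since the reference held no entry for the strand looked up.

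Red blood cell miRNAs were highest in untreated EtOH animals. miR-451, which supports red cell maturation, was 8.71, 9.61 and 8.97 log2 CPM in untreated CHO animals, 7.62, 8.23 and 9.44 with saline, and 7.88, 8.50 and 8.35 with AM21. In EtOH animals it was 10.86, 10.24 and 10.11 untreated, 8.51, 8.86 and 8.997 with saline, and 8.71, 9.16 and 8.33 with AM21. Only the 3 untreated EtOH animals exceeded every CHO animal, and the other 6 lay within the CHO range. The means were 8.59 ± 0.67 in CHO and 9.31 ± 0.88 in EtOH (SD, n = 9 each), a difference of 0.72 ± 0.21 (SE; adjusted p = 0.0439 by limma). This call was lost in 16 of the 18 fits that left out 1 animal, with both other scalings, with robust eBayes and with no replicate block (adjusted p = 0.0516 and 0.0554 by limma for the last 2, range over all alternatives 0.00430 to 0.155).

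miR-144 differed by 0.71 ± 0.28, which did not pass (adjusted p = 0.114 by limma), and it too had its highest 3 values in the untreated EtOH animals (11.29, 11.57 and 11.08). The mature miRNAs lie 119 bases apart on the plus strand at chr10:63459446-63459606. Both measured members of the red blood cell list were thus higher on average, 1 of them called, with a median difference of 0.71, beside 65 of all 143 higher, 7.69% called and a median of -0.02. The third member listed, miR-486, was not in the table. Their summed level was 8.64 to 11.13 in CHO animals (median 10.03) and 9.64 to 12.09 in EtOH animals (median 10.73), and miR-144 was the more abundant. Blood left in the tissue was not measured otherwise, and its part in other differences was not tested.
miR-451-5p: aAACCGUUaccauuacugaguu
miR-144-3p: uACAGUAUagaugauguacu

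No member of the other cell type lists passed the test, beside 7.69% called among all 143 miRNAs (65 higher and 78 lower on average). Of 4 leukocyte miRNAs 3 were higher and 1 lower on average (median 0.16); the summed level was 11.29 to 11.85 in CHO and 11.40 to 11.95 in EtOH animals, with miR-142-3p, a miRNA of blood-forming cells, the most abundant at a difference of 0.35 ± 0.16 (adjusted p = 0.192 by limma). miR-342-3p differed by 0.25 ± 0.09, the myeloid miR-223 by 0.06 ± 0.13 and the lymphocyte miR-150 by -0.17 ± 0.11 (limma, adjusted p = 0.0891, 0.789 and 0.386). Of 4 stellate and other mesenchymal miRNAs 1 was higher and 3 lower (median -0.08), and the summed level was 13.68 to 14.31 in CHO and 13.75 to 14.22 in EtOH animals, with miR-145 the most abundant. Within that list miR-199a-5p differed by -0.33 ± 0.11 (adjusted p = 0.0891 by limma). In untreated, saline and AM21 animals it differed by -0.68, -0.10 and -0.20 (SE 0.18 each). The other arm, miR-199a-3p, differed by -0.68, 0.12 and 0.10 (SE 0.20 each), and neither had a call of diet by treatment. miR-126, made in endothelial cells, differed by 0.15 ± 0.10 and stood alone for its list, at 14.54 to 15.05 in CHO and 14.62 to 15.42 in EtOH animals. The bile duct list had 2 measured members of 5, miR-200b and miR-429, both epithelial miRNAs that repress Zeb genes, at differences of 0.15 ± 0.23 and 0.15 ± 0.16. These averages join opposite directions: in untreated, saline and AM21 animals miR-200b differed by -0.755, 0.675 and 0.528 (SE 0.33 each) and miR-429 by -0.33, 0.41 and 0.37 (SE 0.25 each), without a call of diet by treatment (limma, adjusted p = 0.613 for miR-200b). Their summed level was 8.96 to 10.05 in CHO and 9.38 to 10.56 in EtOH animals, with miR-429 the more abundant. In each of these lists the ranges of the diets overlapped.

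Among growth-related lists, the miR-17/92 and miR-106b clusters are induced by Myc and favour entry into the cell cycle. Of their 7 measured members 0 were called, beside 7.69% of all 143. On average 2 were higher and 5 lower, beside 65 and 78 of all 143, with a median difference of -0.13 beside -0.02. With scaling to the 100 highest miRNAs 1 was higher and 6 were lower. The probe for miR-20a and miR-20b-5p, 2 miRNAs of 1 seed counted together, was 12.51 to 12.90 log2 CPM in CHO animals (median 12.76) and 12.15 to 12.94 in EtOH animals (median 12.36). Of its 9 EtOH animals, 7 lay below every CHO animal and 1 lay above all of them. It differed by -0.32 ± 0.10 and missed the threshold (adjusted p = 0.0566 by limma); it was called with scaling to the 100 highest miRNAs and with voom weights (adjusted p = 0.0350 and 0.0462 by limma, range over all alternatives 0.00922 to 0.230), and in 2 of the 18 fits that left out 1 animal, CHO saline animal 3 or EtOH saline animal 3. miR-17-5p differed by -0.22 ± 0.11.
miR-20a-5p: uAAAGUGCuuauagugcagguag
miR-20b-5p: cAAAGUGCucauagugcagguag
miR-17-5p: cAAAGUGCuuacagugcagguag

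The miR-15/16 family, which restrains cyclins, had 1 of 5 members higher and 4 lower on average (median -0.05, none called). For this list and those below, the values over all 143 miRNAs were 7.69% called, 65 higher and 78 lower (median -0.02). The collagen-repressing miR-29 family had 2 of 3 higher (median 0.17, none called), with miR-29c at 0.29 ± 0.10 and miR-29a at -0.16 ± 0.08 (limma, adjusted p = 0.0891 and 0.294). The miR-23/27/24 clusters had 2 of 5 higher (median -0.01) and the miR-99/100 family 0 of 3 (median -0.09), with none called in either. Of 6 measured miRNAs tied to ethanol in liver, 3 were higher and 3 lower on average, and none was called (median 0.01, or -0.01 and -0.03 with the other scalings). The inflammatory feedback list had 2 of 5 higher (median -0.11); miR-132 differed by -0.46 ± 0.19 (adjusted p = 0.146 by limma) and miR-146a, which dampens Toll-like receptor signalling, by 0.12 ± 0.11. All 4 measured members of the hypoxia, p53 and growth list were higher on average (median 0.08, none called), of which miR-221 turned lower with scaling to the 100 highest miRNAs.

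Of miR-21 and the 5 miRNAs the study names with it, 4 were higher and 2 lower on average and none was called (median 0.12): miR-365 differed by 0.30 ± 0.12, miR-340-5p by 0.19 ± 0.11 and miR-1224 by -0.16 ± 0.12 (limma, adjusted p = 0.114, 0.313 and 0.430). Of 16 miRNAs listed as higher in activated stellate cells, 14 were measured. Of these 14, 7 were higher and 7 lower, with miR-152 called as higher and let-7b as lower (median 0.01). Of 25 listed as lower in activated stellate cells, 21 were measured. Of these 21, 11 were higher and 10 lower, with miR-30a and miR-194 called as higher (median 0.00). The study set such lists against each diet group on its own, which is another comparison. Over all 143 miRNAs, 7.69% were called, with 65 higher and 78 lower. With the other scalings at most 1 miRNA of each list changed sides. miR-539 and miR-628, the remaining miRNAs among the 20 smallest p, differed by -0.35 ± 0.12 and -0.31 ± 0.11 without passing (limma, adjusted p = 0.0891 and 0.101).

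Treatments were then taken apart to see whether the diet difference was shared. Within each treatment alone, with 3 animals per diet and a common spread, limma called 0 of 143 miRNAs (0%) in untreated, in saline and in AM21 animals, with 29, 12 and 22 at an unadjusted p under 0.05. The untreated count rose to 10 without CHO AM21 animal 1 and to 8 without EtOH saline animal 2, animals that enter through the shared spread, and to 1 without CHO untreated animal 2 or CHO saline animal 3. The saline count was 1 without EtOH saline animal 2, and the AM21 count was 1 without CHO AM21 animal 2.

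The size differed from treatment to treatment for some of the 11. miR-152 was higher by 0.55 in untreated, 0.39 in saline and 0.61 in AM21 animals (SE 0.17 each). miR-101b was higher by 0.03 in untreated, 0.45 in saline and 0.60 in AM21 animals (SE 0.16 each). miR-451 was higher by 1.31 in untreated, 0.36 in saline and 0.49 in AM21 animals (SE 0.35 each). The difference of miR-103 was 0.68, 0.07 and 0.52 in the same order (SE 0.185 each), and that of miR-194 was 0.53, 0.10 and 0.59 (SE 0.17 each). The test of diet by treatment called 0 of 143 (0%; limma, 7 at an unadjusted p under 0.05, smallest adjusted p = 0.613), so these unequal sizes are not shown to differ. The contrast of AM21 with the mean of the other treatments also called 0, with 10 at an unadjusted p under 0.05.

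In the 12 saline and AM21 animals alone, 2 of 143 miRNAs were called (1.40%; limma, 16 at an unadjusted p under 0.05). miR-101b was higher in EtOH by 0.52 ± 0.12 and miR-152 by 0.50 ± 0.11 (SE; adjusted p = 0.0405 for both by limma). Both calls were lost with RLE size factors and in 11 of the 12 fits that left out 1 of the animals, the exception being CHO saline animal 2. With untreated and saline animals only, 1 miRNA was called, miR-185, which is named here after its value was seen (0.62 higher in EtOH; adjusted p = 0.0480 by limma) and is not among the 11. miR-185 was higher by 0.70 in untreated and 0.53 in saline animals but lower by 0.20 in AM21 animals (SE 0.19 each), and it had the smallest p of diet by treatment (adjusted p = 0.613 by limma).

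**Figure D2:**
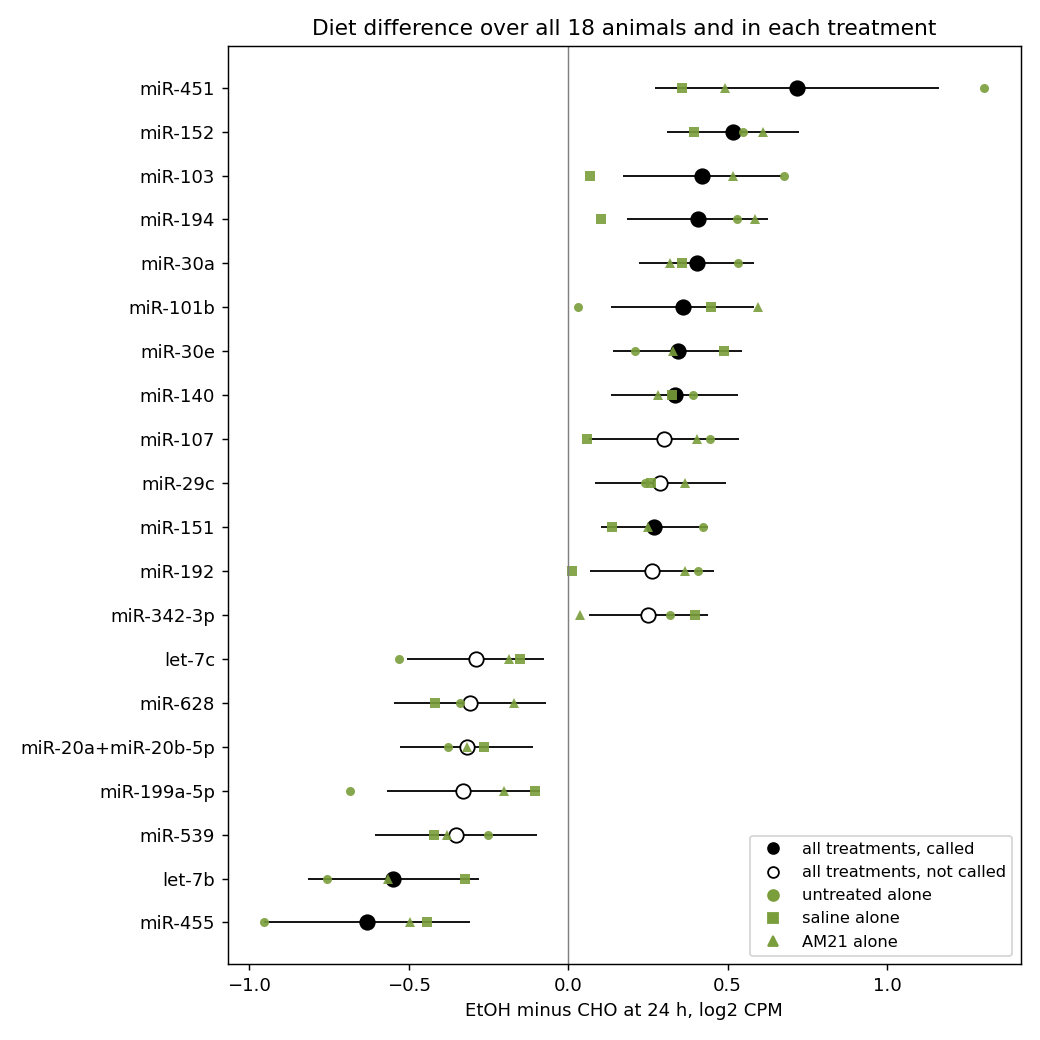
EtOH minus CHO at 24 h in log2 CPM (horizontal axis) for the 20 miRNAs with the smallest p; black circles are the estimate over 18 animals with its 95% interval, filled where called, and green symbols the estimate in each treatment. The miRNAs were chosen on the mean over these same animals; miR-451 is farthest from 0 in untreated animals, at 1.31.

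Before surgery, at 0 h, limma called 14 of 143 miRNAs between diets (9.79%), 9 higher and 5 lower in EtOH, with 38 at an unadjusted p under 0.05. Those with the smallest adjusted p were miR-582, lower by 0.75 (difference -0.75 ± 0.15), miR-342-3p (0.72 ± 0.16) and miR-365 (0.55 ± 0.12), with adjusted p = 0.0109, 0.0169 and 0.0169 by limma. The count ran from 1 without EtOH untreated animal 1 at 0 h to 22 without CHO saline animal 3 at 0 h.

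The libraries of the diets differed at 0 h, where the EtOH total was above the CHO total in every set and treatment. Mean totals were 119400 ± 31500 in CHO and 175200 ± 47200 in EtOH (SD, n = 9 each; two-sided exact permutation test, p = 0.0100), and miR-122 took 51.3% ± 6.79 of the counts in CHO and 58.2% ± 3.00 in EtOH (two-sided exact permutation test, p = 0.0144). With the log10 total count as a covariate, an alternative chosen after the data were seen, 16 miRNAs were called at 0 h, of which 6 were among the 14. Diet and total count moved together at 0 h, and their parts in these calls cannot be told apart.

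miR-152 and miR-151 were called at both times. They made up 18.2% of the calls at 24 h, beside 9.79% of all 143 called at 0 h. They made up 14.3% of the calls at 0 h, beside 7.69% of all 143 called at 24 h. Both shares rest on counts that single animals moved, and the 24 h call of miR-151 held in 1 of 18 fits that left out 1 animal. miR-152 differed by 0.55 ± 0.15 at 0 h and 0.52 ± 0.10 at 24 h, and miR-151 by 0.42 ± 0.10 and 0.27 ± 0.08. With the total count as a covariate both lost their 0 h call, with miR-152 at -0.01 ± 0.18 and miR-151 at 0.48 ± 0.17 (adjusted p = 0.949 and 0.0823 by limma). Of the 11 miRNAs called at 24 h, 9 had the same direction at 0 h, beside 86 of all 143 (60.1%), the exceptions being miR-101b (-0.21 ± 0.24) and miR-140 (-0.02 ± 0.17). With the total count as a covariate at 0 h it was 5 of the 11, beside 56 of all 143 (39.2%), and miR-101b was called at 0 h as lower in EtOH (-1.13 ± 0.30, adjusted p = 0.0329 by limma), opposite to its direction at 24 h. Across the 143 miRNAs, which are not independent replicates, the differences at the 2 times had a Pearson r of 0.42 and a Spearman rho of 0.36.

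The test of the diet difference at 24 h against that at 0 h called 0 of 143 (0%; limma, 20 at an unadjusted p under 0.05), so none of the 11 is shown to be particular to 24 h. This fit took the 36 samples as separate animals; were livers at 0 h and 24 h from the same animals, its errors would not account for that. The smallest adjusted p was that of miR-674-3p, 0.0942 by limma, which differed by 0.57 at 0 h and -0.07 at 24 h. miR-122 differed by 0.43 ± 0.13 at 0 h, where it was called, and by -0.12 ± 0.10 at 24 h (adjusted p = 0.160 by limma for the change). miR-101b had a change of 0.56 ± 0.30 and miR-140 of 0.35 ± 0.22. The count was 9 without CHO saline animal 3 at 0 h, 2 without EtOH untreated animal 3 at 0 h and 1 without EtOH AM21 animal 1 at 0 h, and it was 13 with the log10 total count as a covariate.

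**Figure D3:**
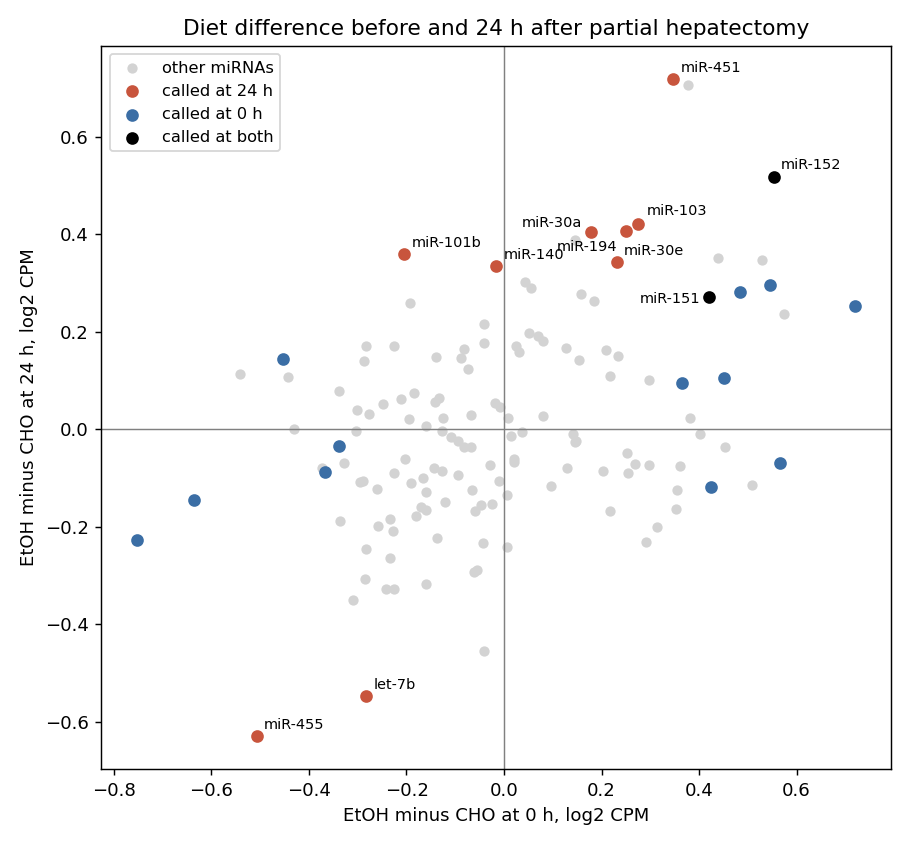
EtOH minus CHO in log2 CPM at 0 h (horizontal axis) and at 24 h (vertical axis) for each of 143 miRNAs; colours mark those called at 24 h, at 0 h or at both. miR-152 and miR-151 were called at both times, and the points scatter widely with r = 0.42.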

How the data were processed

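The platform was NanoString nCounter, with a panel of 420 miRNAs. The authors scaled the counts by TMM (edgeR), transformed them with voom (limma) and deposited log2 CPM for 143 miRNAs in 48 samples. Counts were recovered from the deposited log2 CPM with the prior count of 0.5; all lay within 0.001 of whole numbers. The deposited log2 values were fitted in R 4.3.3 for all 143 miRNAs, without a filter, by limma 3.58.1 (lmFit, then eBayes). P-values were adjusted by Benjamini-Hochberg within each comparison and called under 0.05. The diet comparison had treatment as a covariate and set as a block, and 6 with no replicate block were called in place of 11. Total counts and the miR-122 share were tested by exact permutation over 48620 regroupings, which kept neither set nor treatment together. Scripts were tested on simulated data.

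Named were the called miRNAs, the next by p up to 20, up to 3 with the smallest adjusted p of each other comparison, up to 4 most abundant members of each list, all red blood cell members, miRNAs the study names, and miR-451, miR-103 and miR-455. Members and lists were chosen with earlier results of these data known; the miRNAs whose sequences are printed were chosen after values were seen. Of 26 mature names looked up in RefSeq, 22 matched; names without an arm were read as the principal strand. Alternatives changed the scaling, filter, weights, block, depth, spread and animals. nCounter control probes were not analysed here.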

Additional observations from a re-analysis of the deposited data

Results flagged for a closer look

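The total count of CHO untreated animal 2 stood apart from the other 8 CHO animals at 24 h. It was 92286, the next lowest was 148722 and the highest 196468, so the gap took a share of 0.542 of the range, above Dixon's limit for 9 values. Chance alone passes this limit in about 1 in 20 groups, and 24 groups were looked at: the 11 called miRNAs and the total count, in each diet. Without this animal 4 of 143 miRNAs were called between diets. No miRNA passed the tests of diet by treatment or of diet at 24 h against 0 h.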

How the results depend on the processing

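The count of 11 miRNAs called between diets at 24 h was 4 with RLE size factors (2 higher, 2 lower), 5 when scaled to the 100 highest miRNAs (2 higher, 3 lower), 6 with no replicate block, 6 with the total count (log10) as a covariate, 4 with the spread shared with 0 h animals and 1 with untreated and saline animals only, which has fewer animals. The other settings gave 8 (random replicate block) to 11 (6 group means). Leaving out 1 animal gave 4 to 9. miR-152 was called in 28 of 29 alternatives, let-7b in 28, miR-30a in 27, miR-455 in 26 and miR-194 in 17; miR-103 was called in 11, miR-30e in 10 of 28, and miR-140, miR-101b, miR-451 and miR-151 in 7, 7, 6 and 5. Why counts moved with scaling or single animals was not tested.

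Diet by treatment kept 0 calls in all alternatives, including each omission. With 1 animal left out, the count within untreated animals was 0 to 10, within saline 0 to 1 and within AM21 0 to 1, in saline and AM21 animals together 0 to 2, at 0 h 1 to 22, and for 24 h against 0 h 0 to 9. In saline and AM21 animals together it was 0 with RLE size factors. At 0 h it was 7 without CHO untreated 1 or EtOH AM21 1, 6 without EtOH untreated 2 or EtOH saline 2, and 9 without EtOH AM21 2, CHO untreated 3 or EtOH saline 3. With the total count as a covariate, an alternative added after the data were seen, the 0 h count was 16, of which 6 were shared with the 14. For 24 h against 0 h it was 1 with RLE size factors and 13 with the total count as a covariate.

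Animals of the same set and treatment share a number, and the deviations of EtOH and CHO animals with the same number correlated at -0.27 to 0.26 over miRNAs, above 0.1 in 6 of 9 pairs, so by this measure the numbers did not pair all animals. Of the 18 animals, 12 correlated best with their own number, where about 6 would by chance with 3 to choose from. The 18 choices are not independent, since each correlation served both of its animals, and 12 against 6 was not tested. Whether a number marks pair-fed partners is not given in the sources used here. The block raised the count from 6 with no replicate block to 11; it changed no other count by more than 1 call.

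Directions turned for named miRNAs that were not called. Their absolute differences were at most 0.15, that of miR-200b, whose treatments went in opposite directions. With untreated and saline animals only, miR-200b was -0.04, miR-122 0.0088, miR-221 -0.0758, let-7a 0.0422 and miR-25 0.0249, and with scaling to the 100 highest miR-221 was -0.0097. With 1 animal left out the ranges were -0.033 to 0.0118 for let-7a, -0.0575 to 0.0262 for let-7f, -0.116 to 0.004 for miR-100, -0.0738 to 0.0373 for miR-145, -0.0961 to 0.0702 for miR-195, -0.0234 to 0.27 for miR-200b, -0.0948 to 0.132 for miR-221, -0.0088 to 0.148 for miR-223, -0.0331 to 0.0467 for miR-23a, -0.0859 to 0.0108 for miR-322 and -0.0366 to 0.111 for miR-34a. Low counts limit miR-455, miR-30e and miR-140 most among the called miRNAs. With the filter at 50 counts in 3 animals, 129 miRNAs were tested and 10 called.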
